A study of Mus musculus with 24 samples.

Results

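The genes described here are 41 type I interferon-stimulated genes, listed by mouse symbol and found as 41 of the 39017 rows of the deposited count matrix, with 1 row for each symbol. They were measured in the subcutaneous mammary fat (4th gland) of C57BL/6 mice, by sequencing of total RNA depleted of ribosomal RNA. The 24 libraries form 6 groups of 4: mice on a diet labelled Chow or HFD, each sampled as fat without a tumor (no tumor), fat on the side opposite a breast tumor (contralateral) and fat beside the tumor (peritumoral). The study describes the mice as lean and obese, and the labels used here give no age, tumor line or diet composition. All peritumoral libraries carry L in their titles and all others carry R, so body side and nearness to the tumor cannot be told apart. Whether replicates are separate mice is not said, so a p-value reflects the spread among the libraries of a group, and that spread may be technical.

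Type I interferons are secreted proteins that bind the receptor made of Ifnar1 and Ifnar2. The kinases Jak1 and Tyk2 then phosphorylate signal transducers such as Stat2, which joins Irf9 in a complex that binds interferon-stimulated response elements in DNA and switches on genes against viruses. Many of these genes also respond to interferon-gamma or directly to Irf3 and Irf7, and macrophages and other stromal cells of fat express them at a low level without infection. The 41 genes comprise 3 signalling proteins, 5 sensors of nucleic acids, 6 proteins of ubiquitin-like modification and ADP-ribosylation, 10 effectors that bind or degrade RNA, 8 membrane, GTPase and nucleotide effectors, 4 Schlafen proteins and 5 others.

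The core of the response element can be written as GAAA and GAAA with any 2 bases (NN) between them, and it was searched on both strands in RefSeq promoter windows (GRCm38.p6, 250 bases before to 50 after the start site). Windows were given for 30 of the 41 genes, and 15 of these (50%) held at least 1 match, against 1079 of 27025 genes (3.99%) over the whole table. Matches may overlap each other, and a match is a description of the sequence only. The 200 bases before the start site are shown for Isg15, whose 3 matches overlap in a single run, and for Ifit1, whose 2 matches lie on the other strand, because both are textbook interferon targets with large differences in these libraries. The sequences are printed 5′ to 3′ on the strand of the gene, with matches in capitals. The Isg15 stretch lies at chr4:156200819-156201018 on the minus strand, and the Ifit1 stretch at chr19:34640689-34640888 on the plus strand.
Isg15: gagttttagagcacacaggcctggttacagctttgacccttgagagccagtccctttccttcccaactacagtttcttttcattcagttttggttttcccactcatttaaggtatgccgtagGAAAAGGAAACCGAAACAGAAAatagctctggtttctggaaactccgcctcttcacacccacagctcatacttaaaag
Ifit1: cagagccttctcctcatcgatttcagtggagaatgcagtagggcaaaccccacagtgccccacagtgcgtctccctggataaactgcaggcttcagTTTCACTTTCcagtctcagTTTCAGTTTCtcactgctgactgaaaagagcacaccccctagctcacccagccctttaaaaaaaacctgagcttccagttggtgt

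Shorter stretches around 1 marked match each are shown for Oas3, the member with the widest range between groups, and for Rsad2 and Stat2. The near-identical pairs Ifit3 and Ifit3b and Oas1a and Oas1g are shown in the same way. They lie at chr5:120777713-120777746 (minus strand), chr12:26456551-26456584 (minus), chr10:128270264-128270297 (plus), chr19:34583361-34583394 (plus), chr19:34607757-34607790 (plus), chr5:120907524-120907557 (minus) and chr5:120887610-120887643 (minus), in the order printed.
Oas3: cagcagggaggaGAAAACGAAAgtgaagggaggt
Rsad2: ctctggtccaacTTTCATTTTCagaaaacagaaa
Stat2: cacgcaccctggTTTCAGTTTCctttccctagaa
Ifit3: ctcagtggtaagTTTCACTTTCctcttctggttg
Ifit3b: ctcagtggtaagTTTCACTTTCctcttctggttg
Oas1a: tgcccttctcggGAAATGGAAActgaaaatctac
Oas1g: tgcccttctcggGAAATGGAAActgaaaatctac
Capitals mark 1 match in each stretch. The stretches of Oas1a and Oas1g also hold a further match, which overlaps the marked one and runs on into the lower-case bases. The stretches of Ifit3 and Ifit3b are the same, as are those of Oas1a and Oas1g. Such copies, and the Trim30 and Slfn families, can share reads, so the split of counts between copies is uncertain. The other members with a match were Ifih1, Ddx58, Bst2, Trim30a, Slfn5 and Slfn8.

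Levels are given as CPM, the counts of a gene scaled to a fixed library total, after TMM scaling over all 24 libraries, with SD over n = 4 libraries. Differences are log2 fold changes with SE from edgeR's quasi-likelihood test, called at a Benjamini-Hochberg adjusted p under 0.05 over all genes tested. All 41 members were tested in all 9 comparisons. Total counts per library ran from 9.13 M to 18.2 M, and the 5 adipocyte markers checked (Adipoq, Plin1, Fabp4, Cidec and Lipe) were detected in every group, with sums of 5588 to 13072 CPM. In whole tissue, fewer cells of a type and less RNA per cell cannot be told apart. No source used here says whether reads were counted by strand, and 8 members overlap a gene on the other strand. These are Irf7 with Phrf1, Parp9 with Dtx3l and each of Oasl1, Dhx58, Ifi35, Trim30a and Slfn5 with a Gm, Dhx58os or Slfn5os gene. Irf9 overlaps Rnf31 on the same strand, so reads from these pairs may be shared.

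The group means had a common order. HFD peritumoral fat had the highest mean of the 6 groups for 36 members, and HFD no-tumor fat had the lowest for 35. The ratio of the highest to the lowest group mean ran from 1.38 for Ifi35 to 13.5 for Oas3, an enzyme that makes the 2-5A signal which activates RNase L. It was 9.6 for Slfn1, 8.29 for Oasl1, 5.94 for Oas1g, 5.54 for Isg15 and 5.27 for Zbp1. Per kilobase of exon, the highest member in every group was Ifi27l2a, a small mitochondrial membrane protein, with 544 CPM per kilobase in Chow no-tumor and 1149 in HFD peritumoral fat. Oas3 had 4.13 and 6.91 CPM per kilobase in the same groups, and 0.513 in HFD no-tumor fat.

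**Figure D1:**
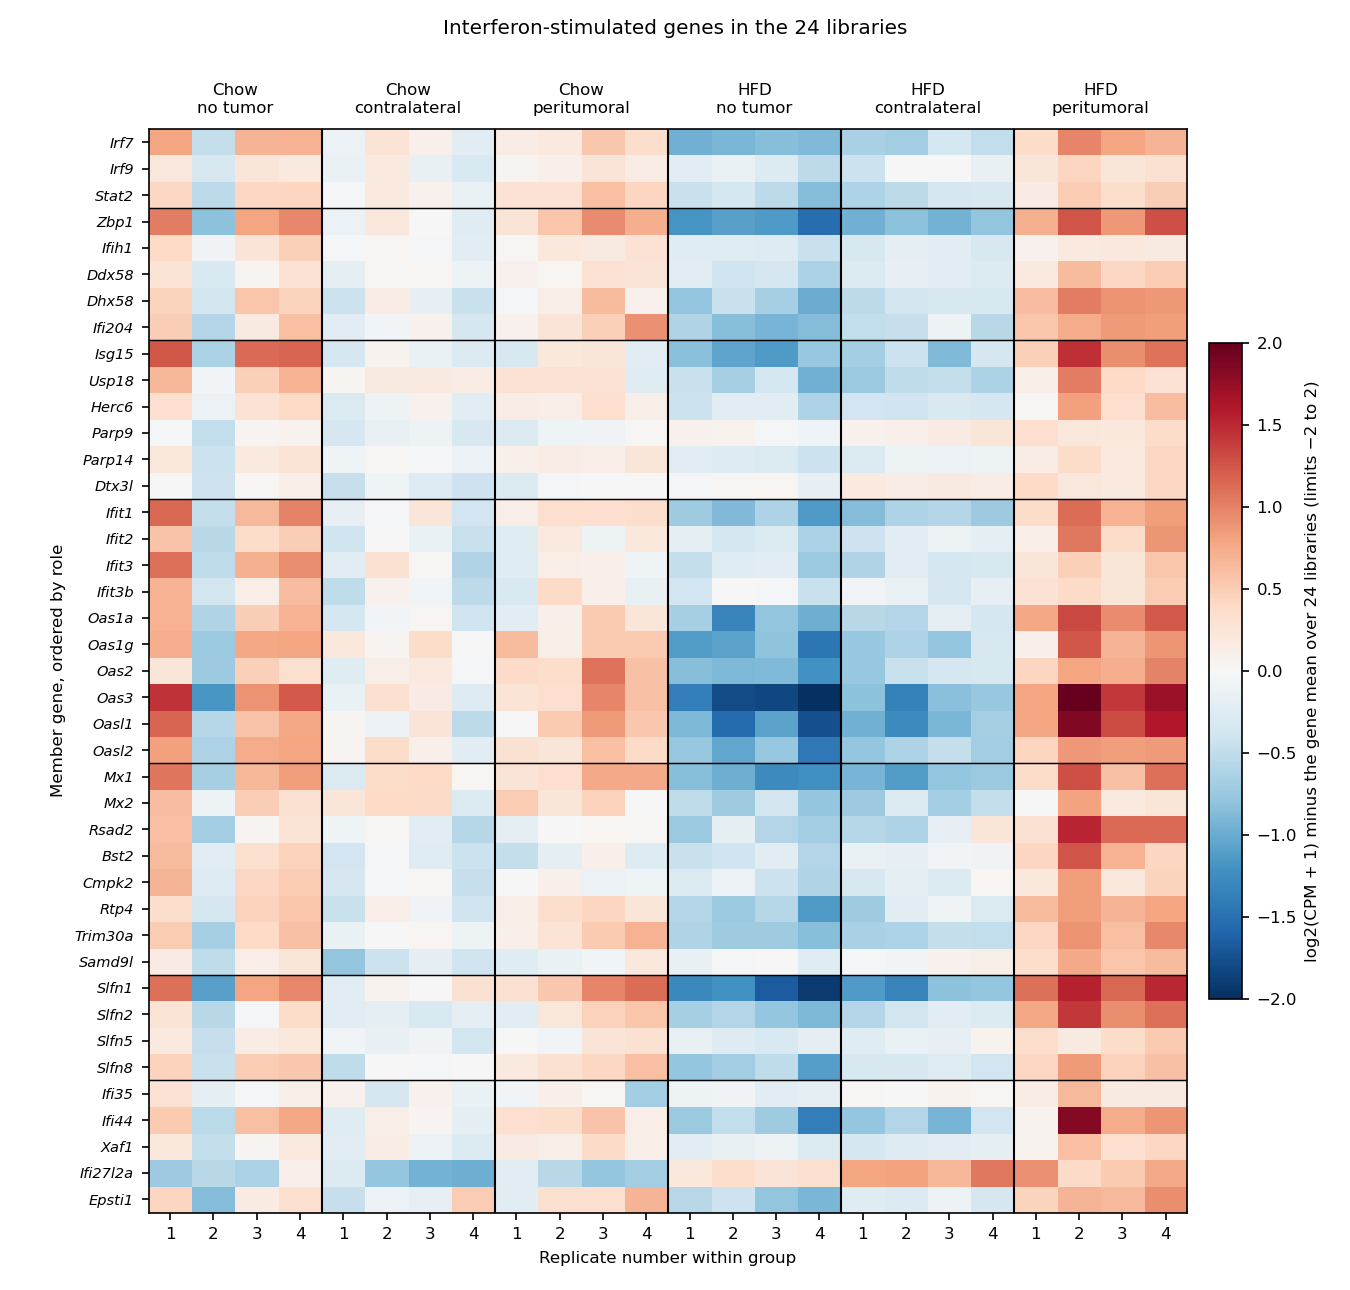
Level of each of the 41 members (rows, ordered by role) in each of the 24 libraries (columns, by group and replicate number), as log2(CPM + 1) minus the mean of the gene, with red above and blue below that mean. HFD peritumoral libraries are mostly red and HFD no-tumor libraries mostly blue, while Chow no-tumor replicate 2 is paler or bluer than the other 3 libraries of its group, and Ifi27l2a runs against the other rows.

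A single library set apart the Chow no-tumor group. Replicate 2 had the lowest level of its group for 40 of 41 members, and its mean log2(CPM + 1) over the members was 4.43, against 5.48, 5.31 and 5.46 in replicates 1, 3 and 4. The means in HFD no-tumor fat were 4.38, 4.37, 4.37 and 4.10, so replicate 2 lay just above that whole group. Its sum of the 6 macrophage markers was 546 CPM, the lowest of its group, where the others had 784 to 853. Whether this bears on its interferon-stimulated genes was not tested. For the members, comparisons that use the Chow no-tumor group are given with and without this library. The other pathway genes are given with it only. Replicate 2 was singled out by the levels of these same members. Leaving it out therefore raises the Chow no-tumor mean of 40 members by construction. Counts and p-values from fits without replicate 2 are descriptive and are not independent tests.

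In fat without a tumor, 28 of the 41 members were lower on HFD than on Chow and 1 was higher, against 11.3% of all genes tested called lower and 13.6% called higher. The median log2 fold change was -1.01 over the members and -0.02 over all genes. For 21 members every HFD library lay below every Chow library, which was so for 13% of all genes. Markers of other cells, of which all but Ly6g and Ccl21a were detected, also differed between these groups. Without overlap, endothelial markers (4) summed to 285 to 333 CPM on Chow and 565 to 596 on HFD, adipocyte markers (5) to 6912 to 8235 and 9671 to 10358, and mammary epithelial markers (5) to 345 to 595 and 286 to 312. Macrophage markers (6) overlapped, at 546 to 853 CPM on Chow and 565 to 699 on HFD, as did the other lists. The part of these cells in the result was not tested. The members that fell included all 3 signalling genes, all 5 sensors, 6 of the 8 membrane, GTPase and nucleotide effectors and 7 of the 10 RNA-binding and RNA-degrading effectors. Among the 5 other genes 1 fell (Ifi44) and 1 rose (Ifi27l2a).

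Irf7, the transcription factor that amplifies interferon production, was at 84.7, 34.6, 78.4 and 79.2 CPM in the Chow no-tumor libraries and at 24.4, 25.3, 26.3 and 25.8 CPM in those on HFD. The groups did not overlap, though Chow replicate 2 lay far closer to the HFD libraries than the other 3 did. Irf7 fell by 1.43 ± 0.27 on the log2 scale (adjusted p = 0.00817, edgeR). Isg15, the ubiquitin-like protein that is attached to other proteins, was at 11.8, 2.46, 10.8 and 11.1 CPM on Chow and at 2.02, 1.59, 1.47 and 2.18 CPM on HFD. Here too the lowest Chow library was replicate 2, which stood just above the highest HFD library. Isg15 fell by 2.30 ± 0.47 (adjusted p = 0.00983, edgeR), a 4.91-fold lower level.

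Usp18, the protease that removes Isg15 and also damps receptor signalling, was at 26.8, 16, 23.4 and 27.4 CPM on Chow and at 11.9, 10.1, 12.8 and 8.01 CPM on HFD. It fell by 1.12 ± 0.19 with no overlap (adjusted p = 0.00218, edgeR). Ifit1, which binds RNA with a foreign 5′ end, was at 74.4, 23.4, 52.4 and 66.6 CPM against 19.7, 17.3, 21 and 14.5 CPM. Ifit1 fell by 1.57 ± 0.35 (adjusted p = 0.0192, edgeR), and its groups did not overlap. Oasl2, an oligoadenylate synthetase-like protein, was at 95.0, 34.3, 89.5 and 92.6 CPM against 31.1, 25.4, 31.1 and 19.2 CPM. Again replicate 2 was the Chow library nearest to HFD, and Oasl2 fell by 1.53 ± 0.35 (adjusted p = 0.0199, edgeR).

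Stat2 and Irf9, which act in 1 complex, were both called. Stat2 was at 75.8, 39.2, 75.3 and 76.6 CPM on Chow and at 41.1, 44.3, 39.2 and 30.5 CPM on HFD, and fell by 0.77 ± 0.22 (adjusted p = 0.0428, edgeR). Irf9 was at 53.6, 36.6, 54.1 and 52.8 CPM against 38.9, 41.5, 37.9 and 31.7 CPM, and fell by 0.38 ± 0.12 (adjusted p = 0.0479, edgeR). For both genes replicate 2 of Chow lay among the HFD libraries, so the groups overlapped. Rsad2, the antiviral enzyme viperin, was at 37.5, 14.7, 25.4 and 29.8 CPM against 14.3, 21.3, 16 and 14.7 CPM, overlapped and was not called, with a log2 fold change of -0.69 ± 0.27 (adjusted p = 0.11, edgeR).

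The largest difference was that of Oas3, at 32.3, 4.49, 21.9 and 27.6 CPM on Chow and 3.68, 2.55, 2.45 and 2.06 CPM on HFD. It fell by 2.99 ± 0.62 (adjusted p = 0.0141, edgeR). Slfn1, a Schlafen protein studied in T cell growth, fell by 2.53 ± 0.54, Oas1g by 2.24 ± 0.44 and Oasl1 by 2.16 ± 0.42. Zbp1, a sensor of Z-form nucleic acids, fell by 1.98 ± 0.41 and Mx1, of the dynamin-like GTPase family, by 1.89 ± 0.38. The lowest adjusted p was 0.000995 for Mx2, which fell by 1.13 ± 0.19. The RNA helicase sensors Ifih1 and Ddx58 fell by 0.57 ± 0.10 and 0.48 ± 0.13, and Dhx58, which tunes both, by 1.11 ± 0.21. Bst2, which tethers budding viruses, fell by 0.76 ± 0.16.

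Without Chow replicate 2, 38 members were lower on HFD and none higher, against 13.6% and 15% of all genes. In that fit Irf7 fell by 1.65, Isg15 by 2.60 and Rsad2 by 0.88, now past the threshold (adjusted p = 0.00545, edgeR), and Ifi27l2a was no longer called. In the other direction, Irf9 and Stat2 lost their calls without any single one of the other 7 libraries. Their highest adjusted p was 0.118 for Irf9 without Chow replicate 3 or 4, and 0.105 for Stat2 without Chow replicate 1 (edgeR). Both also lost their calls with no low-count filter (adjusted p = 0.0852 and 0.104), and DESeq2 called Rsad2 (adjusted p = 0.0211). Ifit1 lost its call without HFD replicate 2 or 4 (adjusted p = 0.0591 and 0.0539, edgeR). Oasl2 lost it without Chow replicate 1 or HFD replicate 2 or 4 (adjusted p = 0.054, 0.0606 and 0.0512, edgeR).

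**Figure D2:**
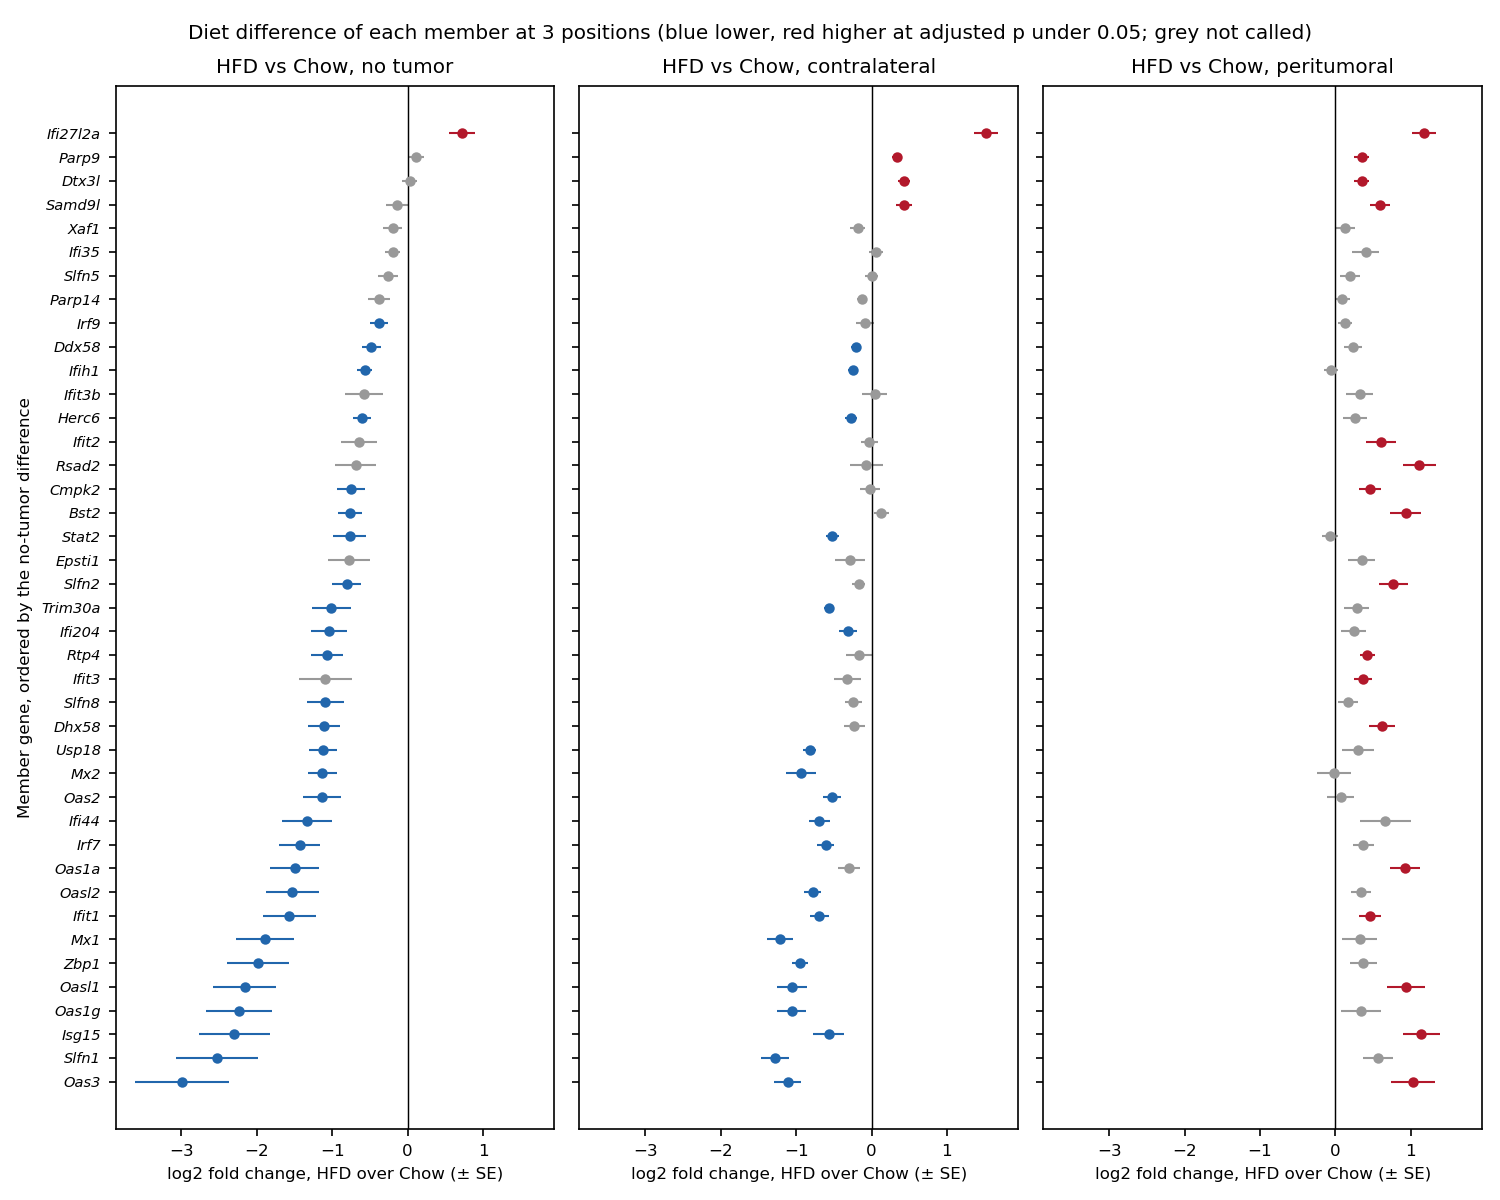
Log2 fold change of HFD over Chow (x axis, bars ± SE) for each of the 41 members (y axis, ordered by the no-tumor difference) in no-tumor, contralateral and peritumoral fat, blue where called lower, red where called higher and grey where not called. The numbers of blue and red points are 28 and 1 in no-tumor, 20 and 4 in contralateral, and 0 and 17 in peritumoral fat.

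In contralateral fat, 20 members were lower on HFD and 4 were higher, against 24.8% and 24.5% of all genes called in those directions. The median was -0.27 over the members and -0.01 over all genes. Every HFD library lay below every Chow library for 16 members (20.6% of all genes). Isg15 fell by 0.57 ± 0.20, Irf7 by 0.61 ± 0.11 and Oas3 by 1.11 ± 0.18. The widest fall was that of Slfn1, by 1.28 ± 0.18, and the widest rise that of Ifi27l2a, by 1.52 ± 0.16. Without overlap, adipocyte markers summed to 6409.8 to 7379 CPM on Chow and 11502 to 13072 on HFD, mammary epithelial markers to 344 to 396 and 159.5 to 216, neutrophil markers (4) to 0.382 to 1.98 and 6.47 to 21.7, and plasmacytoid dendritic cell markers (5) to 8.57 to 36.1 and 4.8 to 6.4. The other lists overlapped, among them macrophage markers at 577 to 735 and 695 to 901 CPM and skeletal muscle markers at 72.6 to 4548 and 45.7 to 75.9 CPM. The part of these cells in the result was not tested.

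Irf7 was at 44.4, 58.5, 52.3 and 41.6 CPM in Chow contralateral fat and at 30.6, 29.6, 37.7 and 34.0 CPM on HFD, with no overlap (adjusted p = 0.00136, edgeR). Usp18 was at 17.3, 18.9, 19 and 18.6 CPM against 9.56, 11.4, 11.6 and 10.4 CPM. The 4 libraries of each group lay close together, and Usp18 fell by 0.82 ± 0.09, with the lowest adjusted p of any member here (2.19e-05, edgeR). Oasl2 was at 55.2, 68.7, 56.9 and 45.9 CPM against 30.6, 34.2, 38 and 32.6 CPM and fell by 0.78 ± 0.11. Ifit1 was at 29.1, 32.0, 39.1 and 25.0 CPM against 17.6, 21.1, 21.6 and 19.5 CPM and fell by 0.69 ± 0.12. In both genes the groups did not overlap. Stat2 was at 55.1, 64.6, 60.2 and 51.6 CPM against 36.7, 39.1, 44.8 and 45.0 CPM and fell by 0.52 ± 0.09, also without overlap. Isg15 was at 3.27, 4.67, 3.91 and 3.45 CPM against 2.36, 3.01, 1.91 and 3.26 CPM. Its highest HFD library lay just below its lowest Chow library (adjusted p = 0.0374, edgeR), and the call was lost without Chow replicate 2 or 3 or HFD replicate 1 or 3 (adjusted p = 0.0720 to 0.127) and with DESeq2 (0.0725), no low-count filter (0.0654) or all 24 libraries in 1 fit (0.225).

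Irf9 and Rsad2 were not called in contralateral fat, at -0.09 ± 0.12 and -0.07 ± 0.22 (adjusted p = 0.583 and 0.822, edgeR). Irf9 was at 41.8, 52.6, 41.1 and 37.1 CPM on Chow and 33.6, 45.8, 45.6 and 41.3 CPM on HFD, and Rsad2 at 23, 24.9, 20.7 and 16.2 CPM against 16.2, 15.6, 21.8 and 29.3 CPM. Both genes overlapped between diets. The sign of Irf9 turned without Chow replicate 2 (0.05) or HFD replicate 1 (0.01). That of Rsad2 turned without Chow replicate 2 (0.05), HFD replicate 1 (0.04) or HFD replicate 2 (0.05). One Chow contralateral library, replicate 4, was high in lymphoid markers. Its B cell sum was 93.1 CPM against 3.41 to 13.3 in the others, and its T and NK cell sum 45.1 against 5.86 to 8.39. Its plasmacytoid dendritic cell sum was 36.1 against 8.57 to 11.4. Its sum of lymph node stroma markers (Glycam1, Ccl21a, Cr2 and Madcam1) was 107 against 4.43 to 8.11. In that library 2 members were the highest of the group, Epsti1 (32.7 CPM against 16.2, 20.8 and 20 in replicates 1 to 3) and Slfn1, and 24 were the lowest. The part of lymphoid cells or lymph node tissue in these levels was not tested.

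In peritumoral fat the direction was the other way. No member was lower on HFD (17.2% of all genes were) and 17 were higher (16.4% of all genes). The median was 0.35 over the members and 0.02 over all genes, and 14 members had every HFD library above every Chow library (17.9% of all genes). Those that rose were 6 of 10 effectors that bind or degrade RNA, 5 of 8 membrane, GTPase and nucleotide effectors, 3 of 6 genes of ubiquitin-like modification, 1 of 5 sensors (Dhx58, 0.62 ± 0.17), 1 of 4 Schlafen genes (Slfn2), 1 of 5 others (Ifi27l2a) and none of the 3 signalling genes. Without overlap, macrophage markers summed to 674 to 1139 CPM on Chow and 1256 to 2015 on HFD, neutrophil markers to 0.206 to 5.73 and 23.2 to 67.8, fibroblast markers (4) to 1643 to 2016 and 2031 to 2575, and mammary epithelial markers to 320.3 to 387 and 63.4 to 245. The part of these cells in the result was not tested.

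Rsad2 was at 21.4, 24.3, 25.3 and 25.0 CPM in Chow peritumoral fat and at 30.6, 72.0, 55.2 and 55.1 CPM on HFD. All HFD libraries lay above the Chow libraries, and Rsad2 rose by 1.11 ± 0.22 (adjusted p = 0.0049, edgeR). Isg15 was at 3.3, 5.25, 5.4 and 3.63 CPM against 6.52, 13.9, 9.29 and 10.5 CPM, and rose by 1.14 ± 0.25 (adjusted p = 0.00806, edgeR). Its groups did not overlap, and HFD replicate 2 was the highest library, as it was for Rsad2. Ifit1 was at 36.2, 41.8, 41.6 and 42.1 CPM against 42.8, 72.7, 53.8 and 59.4 CPM, and rose by 0.46 ± 0.15 (adjusted p = 0.0353, edgeR). Oas1a rose by 0.92 ± 0.20, Bst2 by 0.93 ± 0.20, Oasl1 by 0.94 ± 0.25, Oas3 by 1.03 ± 0.29 and Samd9l, a restriction factor also known as a brake on cell growth, by 0.59 ± 0.13.

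Irf7 was at 53.7, 55.4, 71.0 and 62.1 CPM against 62.6, 96.7, 84.5 and 78.5 CPM, overlapped, and was not called at 0.37 ± 0.14 (adjusted p = 0.0693, edgeR). Oasl2 was at 65.6, 62.8, 80.8 and 69.5 CPM against 71.6, 98.3, 95.6 and 96.6 CPM and was not called at 0.34 ± 0.13 (adjusted p = 0.0641, edgeR). In both genes HFD replicate 1 was the library that reached into the Chow range, and without it both passed, at 0.48 and 0.44 (adjusted p = 0.0146 and 0.0116, edgeR); Oasl2 also passed without Chow replicate 3 (0.41, adjusted p = 0.0454). With DESeq2 both passed, at 0.40 and 0.37 (adjusted p = 0.0453 and 0.0385), as they did in edgeR with no low-count filter (0.0406 and 0.0443), and Irf7 also passed with all 24 libraries in 1 fit (0.0494). Usp18 was at 20.4, 20.6, 20.4 and 13.9 CPM against 18, 34.7, 22.1 and 20.5 CPM, with 0.30 ± 0.21. Irf9 was at 47.6, 49.0, 55.2 and 50.7 CPM against 54.5, 61.8, 54.6 and 57.0 CPM, with 0.13 ± 0.09. Neither passed, and both overlapped. Stat2, at 69.5, 69.4, 86.5 and 76.3 CPM against 63.8, 81.1, 72.2 and 79.7 CPM, gave -0.07 ± 0.11, a sign that turned without Chow replicate 3 (0.00) or HFD replicate 1 (0.01).

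The number of members higher on HFD beside the tumor depended on single libraries. It was 8 without Chow replicate 1, 10 without Chow replicate 2 and 10 without HFD replicate 4, and 13 without HFD replicate 2 (12.8% of all genes). Over all fits that left out a library, the count ran from 8 to 24. Except for the fit without HFD replicate 2, the share of all genes called is not given here. Ifit1 lost its call without Chow replicate 1, 2 or 3 or HFD replicate 2, 3 or 4, with adjusted p from 0.0575 to 0.11 (edgeR), and with all 24 libraries in 1 fit (0.0537).

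**Figure D3:**
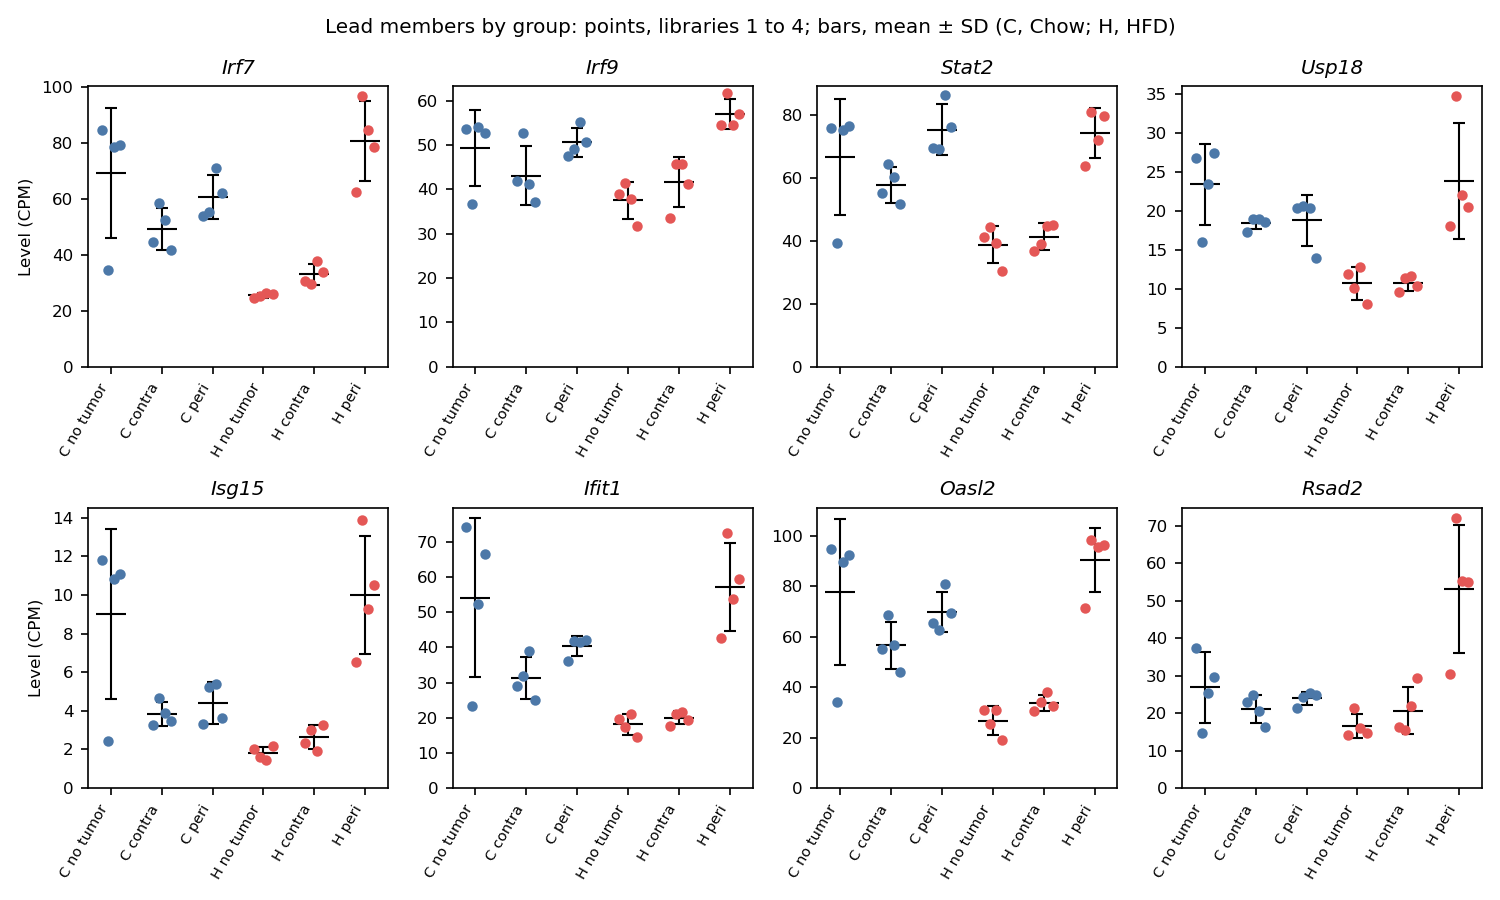
Level in CPM (y axis, starting at 0) of 8 members in the 4 libraries of each group (points; Chow blue, HFD red), with the mean ± SD as bars. HFD peritumoral libraries lie above all HFD contralateral and HFD no-tumor libraries for each of the 8 genes, and in Chow no-tumor fat 1 point, replicate 2, lies below the other 3.

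Of the 9 comparisons, the sides of tumor-bearing mice on HFD had the most members called. Beside the tumor 37 of the 41 members were higher than in contralateral fat and none was lower, against 16.8% and 12.7% of all genes. The median was 1.06 over the members and -0.02 over all genes, 21 of the called members differed by over 2-fold, and 39 had every peritumoral library above every contralateral one (16.8% of all genes). All 10 RNA-binding and RNA-degrading effectors, all 8 membrane, GTPase and nucleotide effectors, all 5 sensors, all 4 Schlafen genes and all 3 signalling genes rose. The 4 members not called were Parp9, Dtx3l, Ifi35 and Ifi27l2a. Of the members with a promoter match 15 of 15 rose, and of those whose window had none 13 of 15 rose.

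From the HFD libraries given above, Irf7 rose by 1.30 ± 0.14 (adjusted p = 0.000571, edgeR) and Isg15 by 1.94 ± 0.26 (adjusted p = 0.0016, edgeR). Ifit1 rose by 1.53 ± 0.15, Oasl2 by 1.43 ± 0.12, Rsad2 by 1.37 ± 0.27, Usp18 by 1.16 ± 0.20, Stat2 by 0.85 ± 0.10 and Irf9 by 0.46 ± 0.10, and none of these 8 genes overlapped between sides. Slfn1 was at 3.33, 2.77, 4.37 and 4.57 CPM in contralateral and at 19.4, 26.6, 20 and 26.0 CPM in peritumoral fat. Its 4 peritumoral libraries all lay far above the contralateral ones, and it rose by 2.62 ± 0.19 (adjusted p = 0.000158, edgeR). Zbp1 was at 10.7, 11.8, 10.8 and 12.1 CPM against 36.1, 53.2, 40.4 and 54.7 CPM, and rose by 2.03 ± 0.15 (adjusted p = 0.000158, edgeR). Oas3 was at 5.93, 3.81, 5.85 and 6.27 CPM against 20.1, 53.6, 31.5 and 39.3 CPM, and rose by 2.73 ± 0.30. HFD peritumoral replicate 2 was the highest of all 24 libraries for Oas3, 1 of 26 members of which that was so.

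The members' count did not rest on that library: without it 37 were higher (13.6% of all genes). Across the 8 fits that each left out a library, 37 or 38 members were higher. Markers of other cells differed between the same groups. The 6 macrophage markers, all detected, summed to 1404, 1256, 2015 and 1836 CPM beside the tumor and to 778, 695, 901 and 835 CPM in contralateral fat, and the 4 neutrophil markers to 23.2 to 67.8 against 6.47 to 21.7 CPM. Adipocyte markers summed to 5588 to 10875 against 11502 to 13072 CPM. Peritumoral replicate 2, the highest library for most members, had the lowest macrophage sum and the lowest adipocyte sum of its group. It had the highest B cell sum (106 CPM) and T and NK cell sum (24.9 CPM). Its plasmacytoid dendritic cell sum (18.9 CPM) and lymph node stroma sum (39.9 CPM) were also the highest of the group. The part of these cells in the result was not tested.

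On Chow, no member was called between peritumoral and contralateral fat, and neither was any of the 16057 genes tested (0% in each direction, edgeR). The lowest adjusted p of a member was 0.559. At an unadjusted p under 0.05 there were 26 members, against 8.6% of all genes, and DESeq2 called 1 member higher (0.0319% of the genes it tested). Of the 41 members 40 had a log2 fold change above 0, with a median of 0.32 against -0.01 over all genes, and 9 had every peritumoral library above every contralateral one (2.65% of all genes). Zbp1, with the lowest p of the members, was at 19.9, 25.7, 21.7 and 18.2 CPM in contralateral and 26.3, 32.5, 42.9 and 36.5 CPM in peritumoral fat. Its groups did not overlap, and its log2 fold change was 0.70 ± 0.16. Slfn1 gave 0.77 ± 0.20, Irf7 0.30 ± 0.13, Isg15 0.22 ± 0.21 and Usp18 0.03 ± 0.12. The sign of Usp18 turned without Chow contralateral replicate 1 (-0.00), Chow peritumoral replicate 1 (-0.01) or Chow peritumoral replicate 3 (-0.01). Every marker list overlapped between these groups. Skeletal muscle markers summed to 4548, 3123, 72.6 and 2540.2 CPM in contralateral and 31.1, 2436, 383 and 37.8 CPM in peritumoral fat. Macrophage markers summed to 577 to 735 and 674 to 1139 CPM. The part of these cells in the result was not tested.

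The difference between the sides was then compared between the diets, in 1 fit of the 16 libraries of tumor-bearing mice. A positive value means a larger peritumoral excess on HFD, and it is equally the change of the diet difference from contralateral to peritumoral fat. No member passed, nor did any of the 16859 genes (0% in each direction, edgeR), and the lowest adjusted p was 0.0521, reached by Slfn1, Oas3, Oasl1, Oasl2, Ifit1 and Zbp1 among others. Slfn1 had the lowest p of all 16859 genes, and 13 members were among the 100 genes with the lowest p. At an unadjusted p under 0.05 there were 32 members, against 19.9% of all genes. The median was 0.68 over the members and 0.02 over all genes. The largest values were 2.19 ± 0.38 for Oas3, 2.05 ± 0.36 for Oasl1, 1.88 ± 0.29 for Slfn1 and 1.75 ± 0.34 for Isg15.

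This result lay close to the threshold and changed with the method. Whether same-numbered peritumoral and contralateral libraries come from 1 mouse is not said in the labels, and the fit does not pair them. DESeq2 called 19 members (2.73% of all genes), all higher, and the fit of all 24 libraries 6 (1.45%). Without HFD peritumoral replicate 1, the lowest library of its group for 34 members, 26 passed (6.54% of all genes). That library stood out by the members' own levels, so this count is descriptive and not an independent test. Without Chow peritumoral replicate 3, 11 passed, and without Chow contralateral replicate 4, 1 passed, and the shares of all genes in these last fits are not given here.

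**Figure D4:**
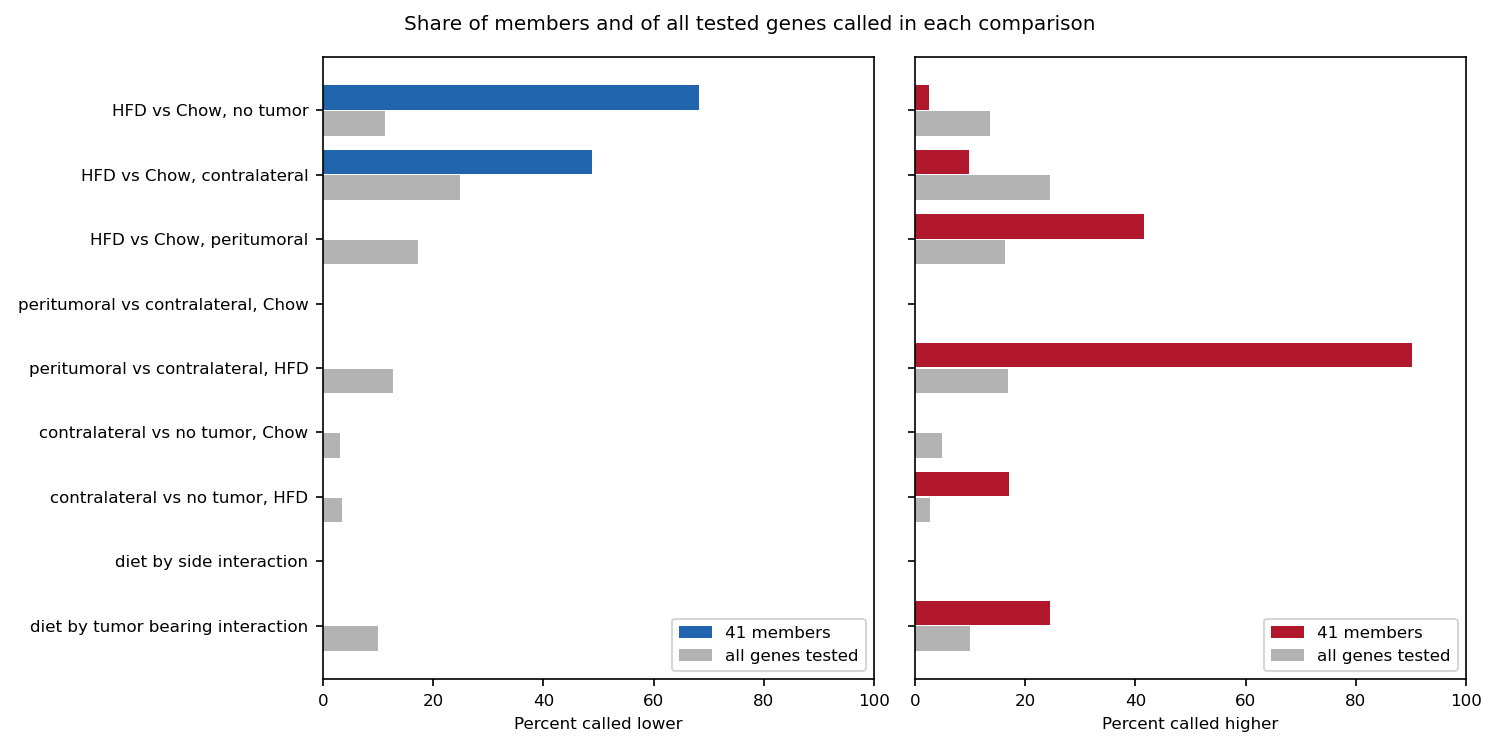
Percent of the 41 members (coloured) and of all genes tested (grey) called lower (left) and higher (right) at an adjusted p under 0.05 in each of the 9 comparisons. The members' bar is longest for peritumoral against contralateral fat on HFD (90.2% higher) and for HFD against Chow without a tumor (68.3% lower), and both bars are at 0 for the Chow sides and the diet by side interaction.

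The next comparisons set contralateral fat against fat of mice without a tumor. On Chow, all 41 members had lower fitted levels in contralateral than in no-tumor fat (median -0.38, -0.01 over all genes), and none was called (3.02% of all genes were called lower and 4.93% higher). The lowest adjusted p was 0.0624, for Bst2 at -0.59 ± 0.17 (edgeR). At an unadjusted p under 0.05 there were 7 members, against 27.9% of all genes. DESeq2 called 3 lower, among them Isg15 (-1.21, adjusted p = 0.0199), which the fit of all 24 libraries also called (0.0378). The shares of all genes called by DESeq2 and by the fit of all 24 libraries are not given here. Without overlap, endothelial markers summed to 285 to 333 CPM in no-tumor and 343 to 406 in contralateral fat. Skeletal muscle markers overlapped, at 15.5, 122, 923 and 18.4 CPM in no-tumor and 4548, 3123, 72.6 and 2540.2 CPM in contralateral fat. The part of these cells was not tested. Without Chow no-tumor replicate 2, 31 members were lower (6.15% of all genes). In that fit Isg15 fell by 1.52, Ifit1 by 1.0, Irf7 by 0.68, Oasl2 by 0.67, Usp18 by 0.45 and Stat2 by 0.35, with adjusted p from 0.000292 to 0.0142 (edgeR).

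On HFD, 7 members were higher in contralateral than in no-tumor fat and none was lower, against 2.72% and 3.37% of all genes. The median was 0.18 over the members and 0.01 over all genes, and 14 had every contralateral library above every no-tumor one (9.37% of all genes). The 7 were Oas3 (1.0 ± 0.20), Ifi27l2a (0.53 ± 0.08), Oas2 (0.50 ± 0.11), Slfn8 (0.43 ± 0.11), Epsti1 (0.42 ± 0.11), Slfn2 (0.37 ± 0.10) and Irf7 (0.35 ± 0.08, adjusted p = 0.0224, edgeR). Irf7 was at 24.4, 25.3, 26.3 and 25.8 CPM in no-tumor and 30.6, 29.6, 37.7 and 34.0 CPM in contralateral fat, without overlap, and lost its call without HFD contralateral replicate 3 or HFD no-tumor replicate 1, 2 or 3 (adjusted p = 0.0584 to 0.0622, edgeR), and with all 24 libraries in 1 fit (0.41). Without overlap, neutrophil markers summed to 0.949 to 2.42 CPM in no-tumor and 6.47 to 21.7 in contralateral fat on HFD, adipocyte markers to 9671 to 10358 and 11502 to 13072, and mammary epithelial markers to 286 to 312 and 159.5 to 216. Macrophage markers, at 565 to 699 and 695 to 901 CPM, overlapped slightly, and the part of these cells was not tested. The other lead members were not called, from -0.02 ± 0.14 for Usp18 to 0.51 ± 0.22 for Isg15. The sign turned for Usp18 without HFD contralateral replicate 1 (0.03) or HFD no-tumor replicate 1 (0.04) or 3 (0.08), and for Stat2 without HFD no-tumor replicate 4 (-0.03). The count of 7 fell to 4 without HFD no-tumor replicate 1, to 3 without HFD no-tumor replicate 2, 3 or 4 or HFD contralateral replicate 2, and to 2 without HFD contralateral replicate 3. Shares of all genes called in these fits are not given here.

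The test of the difference between these 2 effects, which is also the change of the diet difference from no-tumor to contralateral fat, called 10 members, all with a higher value on HFD (9.94% of all genes), and none lower (9.94%). All 41 values lay above 0, with a median of 0.64 against 0.01 over all genes. The 10 were Isg15 (1.74 ± 0.52, adjusted p = 0.0289, edgeR), Oas1a, Bst2, Rtp4, Dhx58, Slfn8, Ifi27l2a, Cmpk2, Slfn2 and Dtx3l, the last at 0.40 ± 0.14. Bst2 had the lowest adjusted p, 0.00671 at 0.90 ± 0.20 (edgeR), from 33.7, 18.5, 26.9 and 30.0 CPM in Chow no-tumor, 16.3, 21.1, 18 and 15.6 CPM in Chow contralateral, 15.5, 16, 18.5 and 13.9 CPM in HFD no-tumor and 19.4, 19.1, 20.6 and 20.4 CPM in HFD contralateral fat. Its level was thus mostly lower opposite a tumor on Chow, where 1 no-tumor library overlapped, and higher on HFD in every library.

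Without Chow no-tumor replicate 2, 34 members passed this test (11.5% of all genes), among them Irf7 (1.04), Ifit1 (1.13), Oasl2 (1.0) and Stat2 (0.43). Leaving out most of the other libraries lowered the count. It was 2, 6 and 1 without Chow contralateral replicates 1, 3 and 4, and 6, 3, 3 and 1 without HFD contralateral replicates 1 to 4. Isg15 lost its call in 8 of the 16 fits that left out a library (Chow contralateral 1 or 4, HFD contralateral 2 or 4, Chow no-tumor 1 or 4, HFD no-tumor 2 or 3; adjusted p = 0.0507 to 0.0587, edgeR), and with no low-count filter (0.0583). The count was 2, 5 and 2 without Chow no-tumor replicates 1, 3 and 4, and 3, 4, 3 and 2 without HFD no-tumor replicates 1 to 4. Except for the fit without Chow no-tumor replicate 2, the share of all genes called is not given here. Whether other genes lost calls to the same degree cannot be read from these counts.

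Ifi27l2a was the member most unlike the rest. It was at 204, 228, 217 and 360.1 CPM in Chow no-tumor, 277, 196, 174 and 171 CPM in Chow contralateral and 291, 229, 196 and 207 CPM in Chow peritumoral fat. On HFD it was at 388, 431, 404 and 419 CPM, 582, 592, 535 and 703 CPM, and 633, 441, 483 and 573 CPM at the same positions. Every HFD library lay above every Chow library at each position, and Ifi27l2a rose by 0.72 ± 0.17, 1.52 ± 0.16 and 1.17 ± 0.16 (adjusted p = 0.0172, 5.53e-05 and 0.000964, edgeR). Between the sides on HFD it was not called, at -0.17 ± 0.14 (adjusted p = 0.347, edgeR).

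Parp9 and Dtx3l, an ADP-ribosyltransferase and its partner ubiquitin ligase, overlap on opposite strands of chromosome 16 (mm10, Parp9 at 35938470 to 35972605 and Dtx3l at 35926511 to 35939151). Parp9 was at 66.1, 75.2, 77.6 and 67.1 CPM in Chow contralateral fat and at 88.5, 89.8, 94.1 and 99.1 CPM on HFD, without overlap. It rose by 0.34 ± 0.07 there and by 0.35 ± 0.10 in peritumoral fat, and Dtx3l by 0.43 ± 0.08 and 0.35 ± 0.10. Samd9l rose by 0.43 ± 0.11 in contralateral fat. Without a tumor these 3 genes were not called between diets, at 0.11 ± 0.11, 0.03 ± 0.10 and -0.14 ± 0.15 (adjusted p = 0.483, 0.861 and 0.547, edgeR). Gm15564, which overlaps Parp9 on the other strand, was at 3.2, 3712, 297 and 127 CPM in Chow contralateral fat, while Parp9 stayed between 66.1 and 77.6 CPM.

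The rest of the pathway was described from lists. The interferon genes themselves had almost no counts. Over all 24 libraries Ifnb1 had 7 counts, of which 4 were in HFD peritumoral fat, Ifnz had 14, and most Ifna genes had 0. Ifnk, made mainly by keratinocytes, had 221, with at most 23 in a library, and was the only one of 18 to pass the low-count filter in any comparison. Ifng had 38 counts, 18 of them in HFD peritumoral fat. Differences in most interferon transcripts were therefore not detectable at this depth, and protein was not measured.

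Of the 7 receptor and kinase genes, 2 were higher and none lower on HFD without a tumor, 3 and 1 in contralateral and 2 and 0 in peritumoral fat. Over all genes 13.6% were higher and 11.3% lower without a tumor, 24.5% and 24.8% in contralateral, and 16.4% and 17.2% in peritumoral fat, and a list of 7 genes is too short to read against them. Ifnar2 rose at each position, by 0.21 ± 0.06, 0.40 ± 0.09 and 0.49 ± 0.11. The transcription factors Irf5 and Irf8, which are not members, were higher beside the tumor than in contralateral fat on HFD, by 0.78 ± 0.09 and 0.83 ± 0.19.

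Of 17 further sensors and adaptors tested, 12 were higher beside the tumor on HFD and none was lower (16.8% and 12.7% of all genes), led by Tmem173 (STING, 1.29 ± 0.16), Ikbke (0.94 ± 0.12) and Myd88 (0.82 ± 0.11). Without a tumor 4 of 17 were lower on HFD (11.3% of all genes), among them Cgas (-0.53 ± 0.15), Adar (-0.41 ± 0.11) and Tlr7 (-0.36 ± 0.11). Of 9 negative regulators 5 were higher beside the tumor on HFD (16.8% of all genes), with Socs3 at 2.01 ± 0.22 and Ptpn6 at 1.33 ± 0.18, and 3 were lower on HFD without a tumor (11.3%), with Socs3 at -1.39 ± 0.35. In Chow no-tumor fat Socs3 was at 15.3, 39.2, 17.4 and 17.3 CPM. Its highest library there was replicate 2, the one with the lowest members.

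Another 42 genes induced by type I interferon were described by the same counts. On HFD 22 were lower and 2 higher without a tumor, 21 and 4 in contralateral fat, and 0 and 10 in peritumoral fat. These stand beside 11.3% lower and 13.6% higher of all genes without a tumor, 24.8% and 24.5% in contralateral, and 17.2% and 16.4% in peritumoral fat. Beside the tumor on HFD 32 were higher than in contralateral fat and none lower (16.8% and 12.7% of all genes), with Ccl12, a chemokine for monocytes, at 3.34 ± 0.28, Ifitm3, which blocks viral entry, at 1.04 ± 0.10 and Phf11d at 1.03 ± 0.10. Of 16 genes induced mainly by interferon-gamma, 9 were higher beside the tumor on HFD (16.8% of all genes), with Ifi47 at 1.41 ± 0.23 and Irgm1 at 1.09 ± 0.16. Between diets 2 were higher and 4 lower without a tumor, 3 and 8 in contralateral and 2 and 2 in peritumoral fat. By the shares of all genes just given, the numbers higher without a tumor, higher in contralateral fat and called in either direction in peritumoral fat are no more than that background. Ido1, an enzyme that degrades tryptophan, was lower on HFD without a tumor (-1.59 ± 0.38) and beside the tumor (-1.88 ± 0.35). In contralateral fat Ido1 was at 50.1 to 73.0 CPM on Chow and 8.18 to 35.5 CPM on HFD, without overlap. The HFD contralateral group serves both the diet and the side comparison, and the 2 no-tumor groups serve both diet and tumor bearing, so these results share libraries and are set side by side only.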

How the data were processed

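The authors deposited raw counts per gene as 1 matrix of 39017 genes by 24 libraries. Per the submitters' processing notes, TopHat, DESeq and mm10 were used; versions, the counting tool and the strand setting are not given in the sources used here. Gene positions and exon lengths were those in the matrix. Symbols were matched for 37607 genes and for all 41 members. The members and gene lists were chosen with earlier results of these data known.

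Each of 7 comparisons of 2 groups was fitted on its 8 libraries, and each of 2 interactions on 16 libraries. The tool was edgeR 4.0.16 under R 4.3.3 (TMM factors, robust quasi-likelihood test). Genes were kept by filterByExpr (minimum count 10, minimum total 15), with Benjamini-Hochberg adjustment over all genes kept and a threshold of 0.05. The SE is the absolute log2 fold change over the square root of F. The script was tested on simulated data. Depth was 9.13 M to 18.2 M counts per library, and no 2 libraries of a group looked like a repeat deposit of 1 library. All 41 members may be named. Levels are given in all groups for Irf7, Irf9, Stat2, Usp18, Isg15, Ifit1, Oasl2 and Rsad2, and beyond these up to 6 members per direction with the lowest adjusted p were picked, while Oas3, Slfn1, Parp9 and others were added after their values were seen. Other pathway genes were limited to 3 per direction, list and comparison. Mnda, Gbp5 and Gbp6 were not analysed here. Alternatives were RLE factors, DESeq2 1.42.0, no low-count filter, all 24 libraries in 1 fit, the replicate number as a block, and leaving out each library. Same-numbered libraries did not deviate together in every pair, so the numbers were not taken to pair the samples.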

Additional observations from a re-analysis of the deposited data

Results flagged for a closer look

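Of 54 sets of 4 libraries tested for a library far from the others (8 members and the mean over all 41 members, in 6 groups), 10 had one. Chance alone gives such a library in about 1 of 20 sets, and the 9 measures are not independent, since they come from the same libraries. In Chow no-tumor replicate 2 the level was far below the other 3 libraries for Irf7 (34.6 CPM), Irf9 (36.6 CPM), Stat2 (39.2 CPM), Isg15 (2.46 CPM) and Oasl2 (34.3 CPM), and for the mean log2(CPM + 1) over the members (4.43).

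In Chow peritumoral fat, Usp18 was low in replicate 4 (13.9 CPM, against 20.4 to 20.6 in the others), and Ifit1 was low in replicate 1 (36.2 CPM, against 41.6 to 42.1). In HFD peritumoral fat, Oasl2 was low in replicate 1 (71.6 CPM, against 95.6 to 98.3). In HFD no-tumor fat the mean over the members was low in replicate 4 (4.10, against 4.37 to 4.38).

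The effect of a tumor on the other side differed between the diets for Isg15 among the 8 members followed in every group, with an interaction of 1.74 ± 0.52 on the log2 scale (adjusted p = 0.0289, edgeR; n = 4 libraries in each of 4 groups). Without Chow no-tumor replicate 2, a library singled out by the members' own levels, the value was 2.04 (adjusted p = 0.000146, edgeR). It lost its call in 8 of the 16 fits that left out 1 library (adjusted p = 0.0507 to 0.0587, edgeR), and with no low-count filter (1.76, adjusted p = 0.0583).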

How the results depend on the processing

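The count of 37 members higher beside the tumor than in contralateral fat on HFD stayed at 37 or 38 when each library was left out in turn. The ranges of counts over these fits were 20 to 38 lower and 0 to 1 higher for HFD against Chow without a tumor, 15 to 21 lower and 4 to 5 higher in contralateral fat, and 8 to 24 higher in peritumoral fat. Against no-tumor fat, contralateral fat had 0 to 31 lower on Chow and 2 to 7 higher on HFD. The ranges were 0 to 26 higher for the diet by side interaction and 1 to 34 higher for the diet by tumor bearing interaction. The share of all genes called changes with the fit too, and shares are given only where stated earlier. Counts without a share, here and below, describe the processing and are not to be read as results about the members. With DESeq2, 1 member was higher between the sides on Chow, 3 were lower in contralateral than no-tumor fat on Chow, and 19 and 16 were higher in the side and tumor bearing interactions. Without a low-count filter, 0 members were higher on HFD without a tumor, and 4 and 3 in the 2 interactions. With all 24 libraries in 1 fit, 13 were lower on HFD in contralateral fat, 2 lower in contralateral than no-tumor fat on Chow and 0 higher on HFD, and 6 were higher in the side interaction. The replicate block gave 18 lower on HFD without a tumor and 4 higher for contralateral against no-tumor fat on HFD. It gave 15 and 1 higher in the side and tumor bearing interactions. Oasl2, Ifit1 and Isg15 were at adjusted p = 0.0281 in the former (edgeR). Isg15 was no longer called in the latter (1.62, adjusted p = 0.0832, edgeR). Across diets, and between contralateral and no-tumor fat, equal numbers join different mice, so the block has no pairing to model there. Whether equal numbers on the 2 sides mark 1 mouse is not said in the labels. Between the sides, same-numbered libraries had correlations of -0.07 to 0.25 on Chow and -0.11 to 0.33 on HFD. The numbers are thus not shown to pair samples, and pairing is not excluded. The cause of these changes was not tested. Of 1064 values of the 8 lead members under the alternatives, 945 kept direction and call, 54 lost a call, 50 gained one and 15 changed sign. All sign changes were of uncalled values: Irf9 (0.05 and 0.01) and Rsad2 (0.05, 0.04 and 0.05) for diet in contralateral fat, Stat2 for diet in peritumoral fat (0.02 with all 24 libraries, 0.00 and 0.01), Usp18 between the sides on Chow (-0.00, -0.01 and -0.01), and Stat2 (-0.03) and Usp18 (0.03, 0.04 and 0.08) for contralateral against no-tumor fat on HFD. Over all fits that left out a library, Irf9 ranged from -0.15 to 0.05 and Rsad2 from -0.27 to 0.05 for diet in contralateral fat, Stat2 ranged from -0.12 to 0.01 for diet in peritumoral fat and from -0.03 to 0.14 for contralateral against no-tumor fat on HFD, and Usp18 from -0.01 to 0.14 between the sides on Chow and from -0.13 to 0.08 for contralateral against no-tumor fat on HFD. RLE factors changed no count by over 1.5 times. Depth limits the interferon genes most, with 7 counts of Ifnb1 in all libraries.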
